A study of Homo sapiens with 9 samples.

Results

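The unfolded protein response and the ATF4 response were described here through 41 genes, 22 of a chaperone, XBP1 and ATF6 arm and 19 of an ATF4 amino acid arm, out of 27548 rows of 1 expression table. Members were chosen by name, as sensors, transcription factors and known targets of these responses. Their measured values were not part of the rule, but earlier results of these data were known when they were chosen. All 41 were found. For the 3 symbols that stood on several rows (CANX, HYOU1 and SESN2) the row with the highest mean of the 9 libraries was kept. HYOU1 and SESN2 each had a further row with identical values, so their reads were split between copies, and the kept row of CANX (ENSG00000283777) has no place in the primary annotation, so these levels are uncertain.

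RNA was sequenced from MDA-MB-231, an established human triple-negative breast cancer cell line, in 3 groups of 3 libraries. TLX+siTLX cells (libraries S7 to S9) overexpressed the orphan nuclear receptor TLX, encoded by NR2E1, and received an siRNA against TLX. TLX+siCTL cells (S4 to S6) overexpressed TLX and received a negative control siRNA, and CTL+siCTL cells (S1 to S3) were control cells given that same control siRNA. Every group was transfected with DharmaFECT 4 for 48 h, so no untransfected cells are part of the comparison. How TLX was overexpressed, and whether the TLX line and the control line are clones or pools, was not stated in the sources used here. Differences between these lines other than TLX cannot be told apart from TLX. Titles of the control samples also say PC3, a term left unexplained by the labels. Whether the 3 libraries of a group came from separate cultures was likewise not stated, so p-values measure only the spread between these libraries, which may be technical.

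Secretory and membrane proteins fold in the endoplasmic reticulum (ER), and an excess of unfolded protein there is sensed by IRE1 (ERN1), ATF6 and PERK (EIF2AK3). IRE1 splices XBP1 mRNA and ATF6 is cut in the Golgi, and the resulting factors raise chaperones, disulfide isomerases and the degradation machinery. PERK, like other kinases that sense amino acid lack or haem lack, phosphorylates eIF2alpha, which favours translation of ATF4, an activator of amino acid synthesis, transport and stress genes including DDIT3 (CHOP). Cancer cells with a high secretory or biosynthetic load are known to use both arms. Spliced XBP1, cleaved ATF6 and ATF4 protein are not measured by these gene-level RNA values.

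Some members carry known binding sequences of these factors close to their start site, and these are shown because they are the sequences through which XBP1, ATF6 and ATF4 are known to act. RefSeq windows on GRCh38.p14, from 250 bases before to 50 bases after the start site, were found for 38 of the 41 members, 21 of the chaperone arm and 17 of the ATF4 arm; PDIA3, PSPH and SHMT2 had none here. Both strands were searched for the ER stress response element ERSE (CCAAT, then 9 bases of any kind, then CCACG), for ERSE-II (ATTGG, 1 base, CCACG), for the unfolded protein response element UPRE (TGACGTGG) and for the C/EBP-ATF response element CARE (TGATGNAA). ERSE was found in 7 of 21 chaperone arm genes (33.3%), in 0 of 17 ATF4 arm genes and in 25 of the 27305 genes with such a window (0.0916%). Members were chosen as known parts and targets of these responses, so the shares here and below describe them and are no test. Its holders, with the element in capitals and 20 bases either side, were as follows, HSP90B1 having it at 2 places. A position is counted along the gene from its start site to the first base of the element, and is negative before the start site.
HSPA5 ERSE: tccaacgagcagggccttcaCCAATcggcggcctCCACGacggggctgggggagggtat
XBP1 ERSE: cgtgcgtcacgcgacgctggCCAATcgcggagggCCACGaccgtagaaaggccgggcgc
HSP90B1 ERSE at position -194: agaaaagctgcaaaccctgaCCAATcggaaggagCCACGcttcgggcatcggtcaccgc
HSP90B1 ERSE at position -89: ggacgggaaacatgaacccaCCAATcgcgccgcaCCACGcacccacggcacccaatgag
CALR ERSE: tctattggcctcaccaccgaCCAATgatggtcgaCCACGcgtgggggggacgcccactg
CANX ERSE: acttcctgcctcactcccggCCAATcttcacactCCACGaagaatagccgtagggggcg
PDIA6 ERSE: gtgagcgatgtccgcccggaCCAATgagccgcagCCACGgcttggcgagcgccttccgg
CRELD2 ERSE: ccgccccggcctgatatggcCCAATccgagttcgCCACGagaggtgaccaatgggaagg
These lie, in the same order, at chr9:125241371-125241429 (minus strand), chr22:28800583-28800641 (minus strand), chr12:103930196-103930254 (plus strand), chr12:103930301-103930359 (minus strand), chr19:12938364-12938422 (minus strand), chr5:179698758-179698816 (plus strand), chr2:10812833-10812891 (minus strand) and chr22:49918534-49918592 (minus strand), printed 5′ to 3′ in the orientation of the element. The 9 bases between the capitals differ from gene to gene.

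ERSE-II was found in 3 of 21 chaperone arm genes (14.3%), in 0 of 17 ATF4 arm genes and in 19 of 27305 genes (0.0696%). HYOU1 held it at 2 places, the farther of which overlaps on the other strand the only UPRE found among members. UPRE was in 253 of 27305 genes (0.927%). The capitals again mark the element.
HYOU1 ERSE-II at position -185: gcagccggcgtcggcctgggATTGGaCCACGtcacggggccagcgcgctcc
HYOU1 ERSE-II at position -79: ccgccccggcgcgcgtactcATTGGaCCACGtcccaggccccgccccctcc
SDF2L1 ERSE-II: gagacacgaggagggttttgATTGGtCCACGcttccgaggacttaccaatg
HERPUD1 ERSE-II: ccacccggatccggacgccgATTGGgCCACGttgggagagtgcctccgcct
These are at chr11:119057360-119057410 (plus strand), chr11:119057254-119057304 (plus strand), chr22:21642094-21642144 (minus strand) and chr16:56932005-56932055 (plus strand). CARE, which is shorter, was in 1217 of 27305 genes (4.46%), in 3 of 17 ATF4 arm genes (17.6%: ATF3, ASNS and CHAC1) and in 2 of 21 chaperone arm genes (CREB3L2, after its start site, and HERPUD1).
ATF3 CARE: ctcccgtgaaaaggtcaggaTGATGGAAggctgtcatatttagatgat
ASNS CARE: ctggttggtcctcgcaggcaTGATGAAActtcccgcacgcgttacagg
CHAC1 CARE: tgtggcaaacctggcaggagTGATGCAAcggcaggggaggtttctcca
HERPUD1 CARE: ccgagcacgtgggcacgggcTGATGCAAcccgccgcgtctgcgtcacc
Their places are chr1:212565196-212565243 (plus strand), chr7:97872449-97872496 (minus strand), chr15:40953242-40953289 (minus strand) and chr16:56931946-56931993 (minus strand). A match describes letters in a window, and a missing match says only that these letters are not in it.

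Levels are given as log2 CPM, the log2 of a gene's reads scaled to the size of the library, as deposited. They are not scaled to transcript length, so a level was compared between libraries and never between genes. Effective library sizes, estimated from the steps between low values, were 73.8 to 91.8 M reads, and the lowest estimated count of any member was 113 reads (STC2), then 262 reads (PHGDH). On such estimated reads, replicates differed by more than sampling noise, and S9 was the most distant library of TLX+siTLX. The chi-square per gene was 58.7 between S7 and S9, 34.1 between S8 and S9 and 25.2 between S7 and S8. Pairs within the other groups differed less, with 14.4 to 16.0 in TLX+siCTL and 9.60 to 14.4 in CTL+siCTL. The label check, NR2E1, had -2.61, -3.40 and -1.77 log2 CPM in TLX+siTLX, 0.28, -0.84 and 0.23 in TLX+siCTL, and -4.59, -4.28 and -4.50 in CTL+siCTL. Its RNA was thus low in every group, and after the siRNA it was lower but still above every control library. All 5 mesenchymal markers looked at averaged 1 log2 CPM or more, their summed CPM being 5472 to 5782 in TLX+siTLX, 4126 to 4185 in TLX+siCTL and 3695 to 3800 in CTL+siCTL. These markers did not move together. The means of CD44, AXL and CAV1 were lowest in CTL+siCTL and highest in TLX+siTLX. VIM averaged 10.69 log2 CPM in TLX+siTLX, 10.02 in TLX+siCTL and 10.66 in CTL+siCTL, and MSN averaged 9.86, 9.61 and 9.61. Among 6 luminal markers 3 averaged 1 log2 CPM or more. The summed CPM of the 6 was 693 to 781 in TLX+siTLX, 509 to 528 in TLX+siCTL and 682 to 707 in CTL+siCTL, and ESR1 was below a log2 CPM of 0 in every library. The means of KRT8 and KRT18 were lowest in TLX+siCTL, while GATA3 averaged 4.24 log2 CPM in TLX+siTLX, 3.30 in TLX+siCTL and 2.37 in CTL+siCTL. The prostate markers KLK2, KLK3 and FOLH1 were below a log2 CPM of 0 in every library. The part of these marker shifts in the results below was not tested. In bulk RNA, fewer expressing cells and less RNA per cell cannot be told apart.

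Most members were lower in TLX-overexpressing cells than in control cells, and many were lower again in the TLX-overexpressing cells given the siRNA against TLX. Here the TLX comparison is TLX+siCTL against CTL+siCTL, the siRNA comparison is TLX+siTLX against TLX+siCTL, and the combined comparison is TLX+siTLX against CTL+siCTL. Each pair of comparisons shares a group of libraries, so their fold changes are not independent and are given side by side. Rose and fell mean an adjusted p under 0.05 in limma's two-sided test, fitted on all 9 libraries and adjusted over all 27548 rows. SE is the standard error of the log2 fold change.

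**Figure D1:**
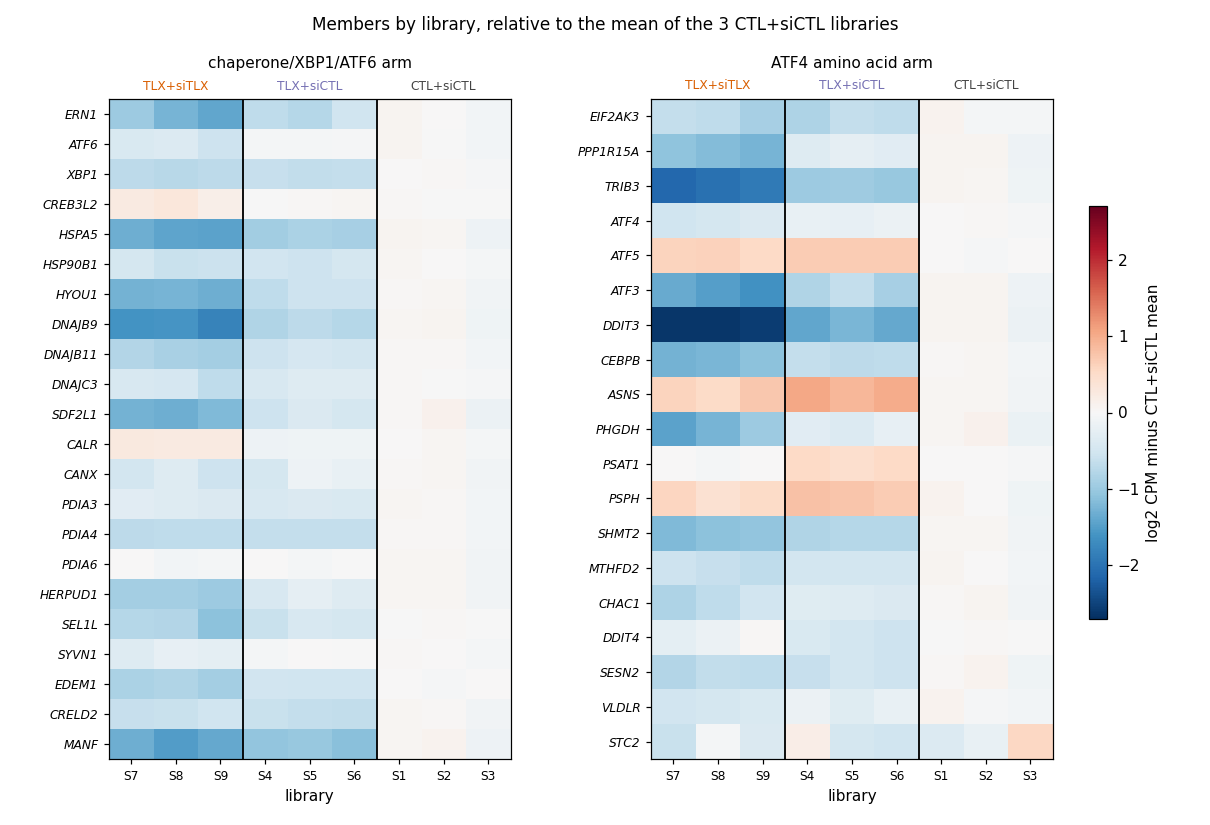
Log2 CPM of each of the 41 members in each library, minus the mean of the 3 CTL+siCTL libraries, by arm; blue is lower and red is higher than in CTL+siCTL. DDIT3 and TRIB3 are the darkest blue rows in TLX+siTLX, while ASNS, PSPH and ATF5 are red in both TLX groups.

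In the TLX comparison 29 of 41 members fell and 4 rose, with a median log2 fold change of -0.49. Of all rows 15.1% fell and 15.0% rose, and of the 12564 rows averaging 1 log2 CPM or more, which held 40 of the 41 members, 27.4% fell and 29.3% rose. The chaperone arm had 16 of 22 members lower and 0 higher (median -0.50, from -1.07 to 0.03). The ATF4 arm had 13 of 19 lower and 4 higher (median -0.36, from -1.34 to 0.98). The median over all rows was 0.00.

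In the siRNA comparison 25 of 41 members fell and 3 rose, with a median of -0.31, against 10.9% of all rows lower and 12.7% higher. Among these more abundant rows 22.0% fell and 23.8% rose. The chaperone arm had 12 of 22 lower and 2 higher (median -0.29), and the ATF4 arm had 13 of 19 lower and 1 higher (median -0.31). In the combined comparison 32 of 41 members fell and 5 rose (median -0.69), where 17.0% of all rows fell and 17.7% rose, and 31.2% and 32.4% of the more abundant rows did so. The chaperone arm then had 19 of 22 lower and 2 higher, and the ATF4 arm had 13 of 19 lower and 3 higher. Centring each library on the median of all rows shifted every log2 fold change by 0.12 in the TLX comparison, by -0.14 in the siRNA comparison and by -0.03 in the combined comparison. With that centring the rows called were 3015 lower and 5578 higher in the TLX comparison, against 4162 and 4142 without it, and 5273 lower and 2253 higher in the siRNA comparison, against 3011 and 3507 without it. The members were then 26 lower and 4 higher in the TLX comparison and 32 lower and 2 higher in the siRNA comparison. Centring on the more abundant rows gave smaller shifts, 0.02 in the TLX comparison and -0.03 in the siRNA comparison. Members were then 29 lower and 4 higher, and 27 lower and 3 higher. With quantile normalization they were 28 lower and 4 higher, and 27 lower and 3 higher.

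**Figure D2:**
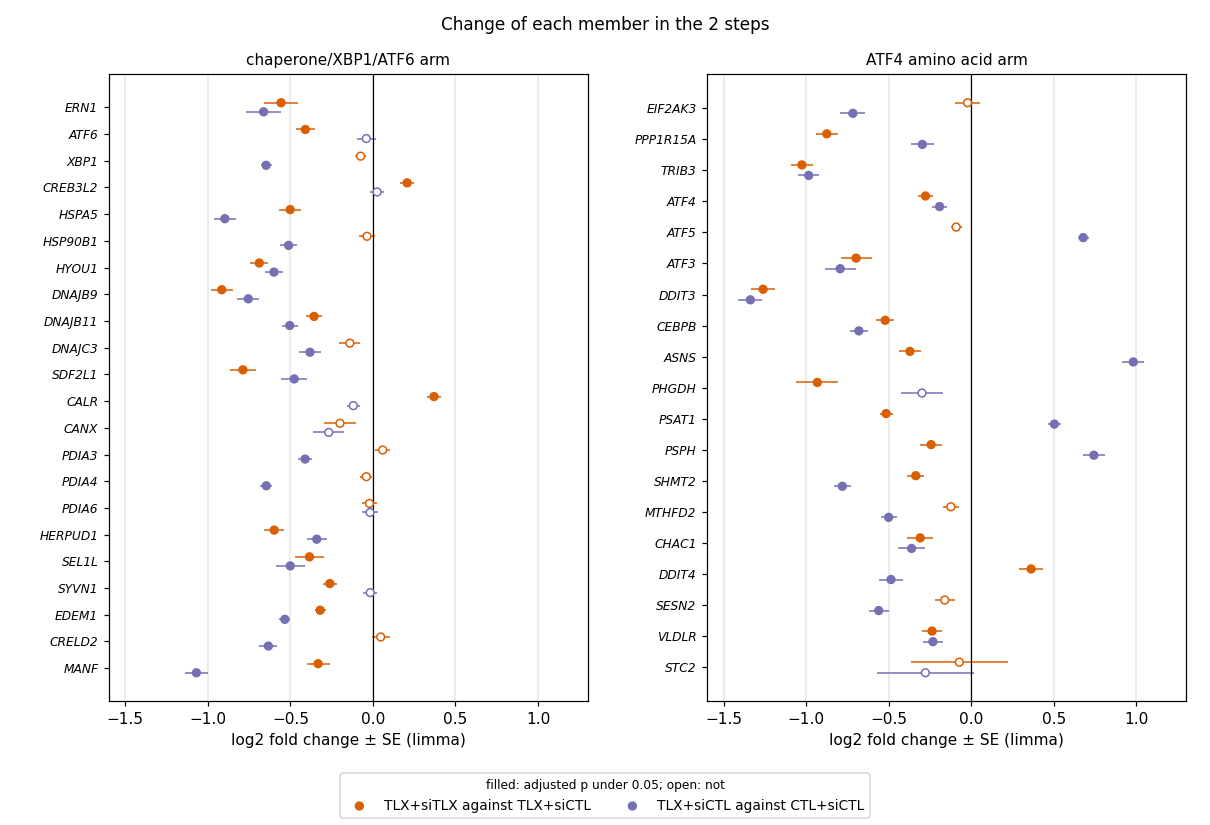
Log2 fold change ± SE of each member by arm in the siRNA comparison (orange) and the TLX comparison (violet); filled points have an adjusted p under 0.05. DDIT3 lies at -1.26 in the siRNA comparison and -1.34 in the TLX comparison, while ASNS lies at -0.37 and 0.98.

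Counts in the small groups of members below stand beside the shares of the more abundant rows. These were 27.4% lower and 29.3% higher in the TLX comparison, and 22.0% lower and 23.8% higher in the siRNA comparison. Among the 4 sensors and factors of the chaperone arm, ERN1 and XBP1 fell in the TLX comparison. In the siRNA comparison ERN1 and ATF6 fell and CREB3L2 rose. ERN1, the IRE1 kinase and RNase (chr17:64039142-64130819, minus strand, GRCh38), had 6.21, 5.93 and 5.79 log2 CPM in TLX+siTLX, 6.52, 6.43 and 6.65 in TLX+siCTL, and 7.27, 7.20 and 7.12 in CTL+siCTL. The groups did not overlap, and TLX+siTLX was the lowest. ERN1 changed by -0.66 ± 0.10 (SE, adjusted p = 0.0012) in the TLX comparison, -0.56 ± 0.10 (SE, adjusted p = 0.00464) in the siRNA comparison and -1.22 ± 0.10 (SE, adjusted p = 2.31e-05) in the combined comparison.

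XBP1, the factor whose mRNA IRE1 splices, had 7.58, 7.54 and 7.59 log2 CPM in TLX+siTLX, 7.67, 7.62 and 7.64 in TLX+siCTL, and 8.31, 8.32 and 8.25 in CTL+siCTL. Both TLX groups were lower than every control library, and they lay close to each other without overlapping. It fell by 0.65 ± 0.03 (SE, adjusted p = 2.65e-06) on the log2 scale in the TLX comparison, and the siRNA comparison gave -0.07 ± 0.03 (SE, adjusted p = 0.159), which among the settings run became a call only with centring on all rows (-0.22, adjusted p = 0.00525). ATF6, the membrane-bound factor, showed the other order of steps, with 6.94, 6.99 and 6.80 log2 CPM in TLX+siTLX, 7.31, 7.32 and 7.34 in TLX+siCTL, and 7.44, 7.36 and 7.28 in CTL+siCTL. Only the TLX+siTLX libraries were apart from the rest. The log2 fold change of ATF6 was -0.04 ± 0.06 (SE, adjusted p = 0.664) in the TLX comparison and -0.41 ± 0.06 (SE, adjusted p = 0.000939) in the siRNA comparison, and the combined comparison gave -0.45 ± 0.06 (SE, adjusted p = 0.000249). CREB3L2, a related membrane-bound factor, was slightly higher after the siRNA, with 7.42, 7.49 and 7.35 log2 CPM in TLX+siTLX, 7.18, 7.21 and 7.25 in TLX+siCTL, and 7.21, 7.19 and 7.17 in CTL+siCTL. It gave 0.03 ± 0.04 (SE, adjusted p = 0.717) in the TLX comparison, 0.21 ± 0.04 (SE, adjusted p = 0.00636) in the siRNA comparison and 0.23 ± 0.04 (SE, adjusted p = 0.00198) in the combined comparison. The siRNA call of CREB3L2 was lost when libraries were centred on all rows (0.07, adjusted p = 0.371).

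Of 9 ER chaperones and co-chaperones, 7 fell in the TLX comparison and 0 rose, and 5 fell and 1 rose in the siRNA comparison. HSPA5 (BiP), the main ER Hsp70 chaperone (chr9, where the ERSE printed above lies), had 10.83, 10.72 and 10.71 log2 CPM in TLX+siTLX, 11.21, 11.30 and 11.26 in TLX+siCTL, and 12.23, 12.21 and 12.03 in CTL+siCTL. The 3 groups were apart, with control cells highest and TLX+siTLX lowest. HSPA5 changed by -0.90 ± 0.07 (SE, adjusted p = 1.8e-05) in the TLX comparison, -0.50 ± 0.07 (SE, adjusted p = 0.000875) in the siRNA comparison and -1.40 ± 0.07 (SE, adjusted p = 9.65e-07) in the combined comparison, the last being 2.64-fold lower in TLX+siTLX.

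DNAJB9 (ERdj4), a co-chaperone of BiP that also binds IRE1, fell the most of this arm in the siRNA and combined comparisons. Its log2 CPM was 6.41, 6.43 and 6.23 in TLX+siTLX, 7.22, 7.33 and 7.26 in TLX+siCTL, and 8.08, 8.10 and 7.92 in CTL+siCTL. No library of one group reached the range of another. The changes of DNAJB9 were -0.76 ± 0.07 (SE, adjusted p = 4.32e-05) in the TLX comparison, -0.92 ± 0.07 (SE, adjusted p = 3.23e-05) in the siRNA comparison and -1.67 ± 0.07 (SE, adjusted p = 3.89e-07) in the combined comparison. HYOU1 (GRP170), a nucleotide exchange factor of BiP whose window holds ERSE-II at 2 places, had 7.84, 7.86 and 7.80 log2 CPM in TLX+siTLX, 8.43, 8.56 and 8.56 in TLX+siCTL, and 9.16, 9.18 and 9.02 in CTL+siCTL. Its groups were likewise apart. It changed by -0.60 ± 0.05 (SE, adjusted p = 4.34e-05), -0.69 ± 0.05 (SE, adjusted p = 4.32e-05) and -1.29 ± 0.05 (SE, adjusted p = 4.66e-07) in the TLX, siRNA and combined comparisons. SDF2L1, a cofactor of BiP and a further ERSE-II holder, had 3.38, 3.33 and 3.47 log2 CPM in TLX+siTLX, 4.10, 4.28 and 4.18 in TLX+siCTL, and 4.68, 4.79 and 4.51 in CTL+siCTL. All 3 libraries of TLX+siTLX were below all others. SDF2L1 gave -0.48 ± 0.08 (SE, adjusted p = 0.00173), -0.79 ± 0.08 (SE, adjusted p = 0.000173) and -1.27 ± 0.08 (SE, adjusted p = 3.95e-06) in the same 3 comparisons.

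The remaining chaperones are given by their changes. HSP90B1 (GRP94, the ER Hsp90) and DNAJC3 (p58IPK, an inhibitor of PERK) fell in the TLX comparison by 0.51 ± 0.05 and 0.38 ± 0.06 (SE), with -0.04 ± 0.05 and -0.14 ± 0.06 and no call in the siRNA comparison. There HSP90B1 became a call with quantile normalization (-0.20, adjusted p = 0.0167) and DNAJC3 with centring on all rows (-0.28, adjusted p = 0.0126). DNAJB11 (ERdj3), another BiP co-chaperone, gave -0.50 ± 0.05 (SE) and -0.36 ± 0.05 (SE) in those comparisons and was called in both. CALR and CANX are lectin chaperones, which hold glycoproteins for folding. CALR, singled out after its values were seen as the chaperone that rose, had 10.20, 10.17 and 10.17 log2 CPM in TLX+siTLX, 9.80, 9.81 and 9.82 in TLX+siCTL, and 9.95, 9.97 and 9.87 in CTL+siCTL. TLX+siTLX was the highest group and TLX+siCTL the lowest, with no overlap. CALR gave -0.12 ± 0.04 (SE, adjusted p = 0.0545) in the TLX comparison and 0.37 ± 0.04 (SE, adjusted p = 0.000253) in the siRNA comparison, and stood 0.25 ± 0.04 (SE, adjusted p = 0.00109) in the combined comparison. Its value in the TLX comparison became a call without S3 (adjusted p = 0.0148), without S7 (0.0393) or without S9 (0.0331), and is called lower in the authors' deposited table. CANX, the membrane-bound counterpart, gave -0.27 ± 0.10 (SE, adjusted p = 0.0668) and -0.20 ± 0.10 (SE, adjusted p = 0.189) in the TLX and siRNA comparisons and -0.47 ± 0.10 (SE, adjusted p = 0.00435) in the combined comparison. Without S4, the lowest of the TLX+siCTL libraries for CANX, its siRNA value was -0.30 (adjusted p = 0.0406), and it was also called with centring on all rows (-0.34, adjusted p = 0.0304) and with quantile normalization (-0.37, adjusted p = 0.0297). The TLX value of CANX became a call with the filter on low values (adjusted p = 0.018), as did that of CALR (0.0215), and CANX is called lower in the authors' deposited table.

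Of the 3 disulfide isomerases, which form and exchange disulfide bonds in client proteins, PDIA3 and PDIA4 fell in the TLX comparison, by 0.41 ± 0.04 and 0.65 ± 0.04 (SE). In the siRNA comparison 0 of 3 were called, with PDIA3 at 0.06 ± 0.04 (SE), PDIA4 at -0.04 ± 0.04 (SE) and PDIA6 at -0.02 ± 0.05 (SE). PDIA6 was uncalled throughout, its combined value being -0.04 ± 0.05 (SE, adjusted p = 0.578), and its 9 libraries spanned 8.51 to 8.64 log2 CPM. PDIA4 became lower in the siRNA comparison only with centring on all rows (-0.18, adjusted p = 0.0189).

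All 4 members of ER-associated degradation, which moves misfolded proteins out to the proteasome, fell in the siRNA comparison, and 3 of 4 fell in the TLX comparison. HERPUD1, a membrane protein that organizes the degradation complex and holds both ERSE-II and CARE, had 6.80, 6.80 and 6.73 log2 CPM in TLX+siTLX, 7.28, 7.47 and 7.37 in TLX+siCTL, and 7.76, 7.77 and 7.61 in CTL+siCTL. The groups were apart, TLX+siTLX being lowest. HERPUD1 changed by -0.34 ± 0.06 (SE, adjusted p = 0.00238) in the TLX comparison, -0.60 ± 0.06 (SE, adjusted p = 0.000167) in the siRNA comparison and -0.94 ± 0.06 (SE, adjusted p = 4.35e-06) in the combined comparison. EDEM1, a lectin that hands over glycoproteins, gave -0.53 ± 0.03 (SE) and -0.32 ± 0.03 (SE) in the TLX and siRNA comparisons. SEL1L, the adaptor of the ubiquitin ligase SYVN1 (HRD1), gave -0.50 ± 0.09 (SE) and -0.38 ± 0.09 (SE). The siRNA call of SEL1L was lost without S5 (adjusted p = 0.0709), without S6 (0.0651) and in a fit of the 2 groups alone (0.0815). SYVN1 itself gave -0.02 ± 0.04 (SE, adjusted p = 0.84) in the TLX comparison and -0.26 ± 0.04 (SE, adjusted p = 0.00219) in the siRNA comparison.

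Both secreted ER stress proteins fell in the TLX comparison. MANF, a secreted neurotrophic factor that stays in the ER with BiP, had 6.04, 5.84 and 5.96 log2 CPM in TLX+siTLX, 6.29, 6.33 and 6.23 in TLX+siCTL, and 7.40, 7.43 and 7.21 in CTL+siCTL. Control libraries were far above both TLX groups, and TLX+siTLX was lowest. MANF fell by 1.07 ± 0.07 (SE, adjusted p = 7.8e-06) in the TLX comparison, which was the largest fall of the arm there, and gave -0.33 ± 0.07 (SE, adjusted p = 0.00831) and -1.40 ± 0.07 (SE, adjusted p = 1.08e-06) in the siRNA and combined comparisons. CRELD2, a cofactor of disulfide isomerases, gave -0.63 ± 0.05 (SE, adjusted p = 3.61e-05) in the TLX comparison and 0.05 ± 0.05 (SE, adjusted p = 0.622) in the siRNA comparison, where its groups overlapped.

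Read by promoter element, the chaperone arm split as follows, with no test. Of the 7 genes with ERSE, 4 fell in the TLX comparison (HSPA5, XBP1, HSP90B1 and CRELD2), and CALR, CANX and PDIA6 were not called. HSPA5 fell in the siRNA comparison, CALR rose and the other 5 were not called. The 3 genes with ERSE-II (HYOU1, SDF2L1 and HERPUD1) had log2 fold changes from -0.60 to -0.34 in the TLX comparison and from -0.79 to -0.60 in the siRNA comparison. Of arm members with a window and neither element, ERN1, DNAJB9, DNAJB11, DNAJC3, PDIA4, SEL1L, EDEM1 and MANF fell in the TLX comparison. ATF6, CREB3L2 and SYVN1 were not called there. In the siRNA comparison ERN1, ATF6, DNAJB9, DNAJB11, SEL1L, SYVN1, EDEM1 and MANF fell, CREB3L2 rose, and DNAJC3 and PDIA4 were not called. Among the more abundant rows 27.4% fell in the TLX comparison and 22.0% in the siRNA comparison.

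In the ATF4 arm, the kinase and its feedback regulators all fell in the TLX comparison. EIF2AK3, which encodes PERK, had 5.96, 5.92 and 5.71 log2 CPM in TLX+siTLX, 5.78, 5.96 and 5.92 in TLX+siCTL, and 6.69, 6.56 and 6.55 in CTL+siCTL. The TLX groups overlapped each other and lay below every control library. EIF2AK3 gave -0.72 ± 0.08 (SE, adjusted p = 0.000123) in the TLX comparison, -0.02 ± 0.08 (SE, adjusted p = 0.911) in the siRNA comparison and -0.74 ± 0.08 (SE, adjusted p = 7.48e-05) in the combined comparison. PPP1R15A (GADD34), which directs the phosphatase that removes the phosphate from eIF2alpha, had 8.60, 8.52 and 8.44 log2 CPM in TLX+siTLX, 9.35, 9.45 and 9.38 in TLX+siCTL, and 9.76, 9.76 and 9.55 in CTL+siCTL. The larger gap lay between TLX+siTLX and the others. It gave -0.30 ± 0.07 (SE, adjusted p = 0.0096) in the TLX comparison, -0.88 ± 0.07 (SE, adjusted p = 4.32e-05) in the siRNA comparison and -1.17 ± 0.07 (SE, adjusted p = 2.46e-06) in the combined comparison. The TLX call of PPP1R15A was lost without S1 (adjusted p = 0.0523), without S4 (0.0505) and with centring on all rows (-0.18, 0.11).

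TRIB3, a pseudokinase induced by ATF4 and DDIT3 that restrains ATF4, had 7.06, 7.17 and 7.27 log2 CPM in TLX+siTLX, 8.19, 8.22 and 8.16 in TLX+siCTL, and 9.25, 9.23 and 9.06 in CTL+siCTL. The 3 groups were evenly spaced, about 1 log2 unit apart. TRIB3 changed by -0.99 ± 0.06 (SE, adjusted p = 7.89e-06) in the TLX comparison, -1.03 ± 0.06 (SE, adjusted p = 1.52e-05) in the siRNA comparison and -2.01 ± 0.06 (SE, adjusted p = 1.43e-07) in the combined comparison, the last being 4.03-fold lower in TLX+siTLX.

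Of the 5 factors, 4 fell and ATF5 rose in the TLX comparison, and 4 fell in the siRNA comparison. DDIT3 (CHOP, chr12:57516588-57521737, minus strand, GRCh38), a factor tied to cell death under lasting stress, had 5.16, 5.17 and 5.23 log2 CPM in TLX+siTLX, 6.39, 6.55 and 6.40 in TLX+siCTL, and 7.87, 7.87 and 7.62 in CTL+siCTL. No member differed more between the groups, and none of its libraries came near those of another group. DDIT3 averaged 5.19 ± 0.03 log2 CPM in TLX+siTLX, 6.45 ± 0.09 in TLX+siCTL and 7.79 ± 0.14 in CTL+siCTL (SD, n = 3 each). It changed by -1.34 ± 0.07 (SE, adjusted p = 3.26e-06) in the TLX comparison, -1.26 ± 0.07 (SE, adjusted p = 1.06e-05) in the siRNA comparison and -2.60 ± 0.07 (SE, adjusted p = 7.36e-08) in the combined comparison, which is 6.06-fold lower in TLX+siTLX than in CTL+siCTL.

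ATF4 itself, at the level of its mRNA, had 8.32, 8.37 and 8.47 log2 CPM in TLX+siTLX, 8.66, 8.64 and 8.70 in TLX+siCTL, and 8.86, 8.89 and 8.82 in CTL+siCTL. Its groups were apart but close, in the same order as those of DDIT3. ATF4 gave -0.19 ± 0.05 (SE, adjusted p = 0.0113) in the TLX comparison, -0.28 ± 0.05 (SE, adjusted p = 0.00233) in the siRNA comparison and -0.47 ± 0.05 (SE, adjusted p = 4.94e-05) in the combined comparison. The TLX call was lost with centring on all rows (-0.08, adjusted p = 0.336) and with quantile normalization (-0.12, 0.092). ATF3, a repressor and activator of the same family whose window holds CARE, had 5.19, 5.05 and 4.92 log2 CPM in TLX+siTLX, 5.72, 5.89 and 5.64 in TLX+siCTL, and 6.62, 6.61 and 6.40 in CTL+siCTL. Each group was apart, with TLX+siTLX lowest. ATF3 gave -0.79 ± 0.09 (SE, adjusted p = 0.000221), -0.70 ± 0.09 (SE, adjusted p = 0.00081) and -1.49 ± 0.09 (SE, adjusted p = 3.81e-06) in the TLX, siRNA and combined comparisons.

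CEBPB, a partner of ATF4 on CARE sequences, had 7.72, 7.77 and 7.90 log2 CPM in TLX+siTLX, 8.36, 8.28 and 8.31 in TLX+siCTL, and 9.02, 9.06 and 8.92 in CTL+siCTL. It followed the same order of groups without overlap. CEBPB gave -0.68 ± 0.06 (SE, adjusted p = 2.48e-05), -0.52 ± 0.06 (SE, adjusted p = 0.000213) and -1.20 ± 0.06 (SE, adjusted p = 6.95e-07) in the same 3 comparisons. ATF5, a related factor that is also controlled in translation, went the other way, with 5.69, 5.73 and 5.65 log2 CPM in TLX+siTLX, 5.78, 5.78 and 5.78 in TLX+siCTL, and 5.12, 5.08 and 5.11 in CTL+siCTL. Both TLX groups were above all control libraries. ATF5 rose by 0.68 ± 0.03 (SE, adjusted p = 2.03e-06) in the TLX comparison, and gave -0.09 ± 0.03 (SE, adjusted p = 0.0833) in the siRNA comparison, which became a call without S8 (-0.11, adjusted p = 0.0391), with centring on all rows (-0.23, 0.0018) or on the more abundant rows (-0.12, 0.0318) and with log2(CPM + 1) (0.0391). In the combined comparison ATF5 stood 0.59 ± 0.03 (SE, adjusted p = 2.06e-06).

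**Figure D3:**
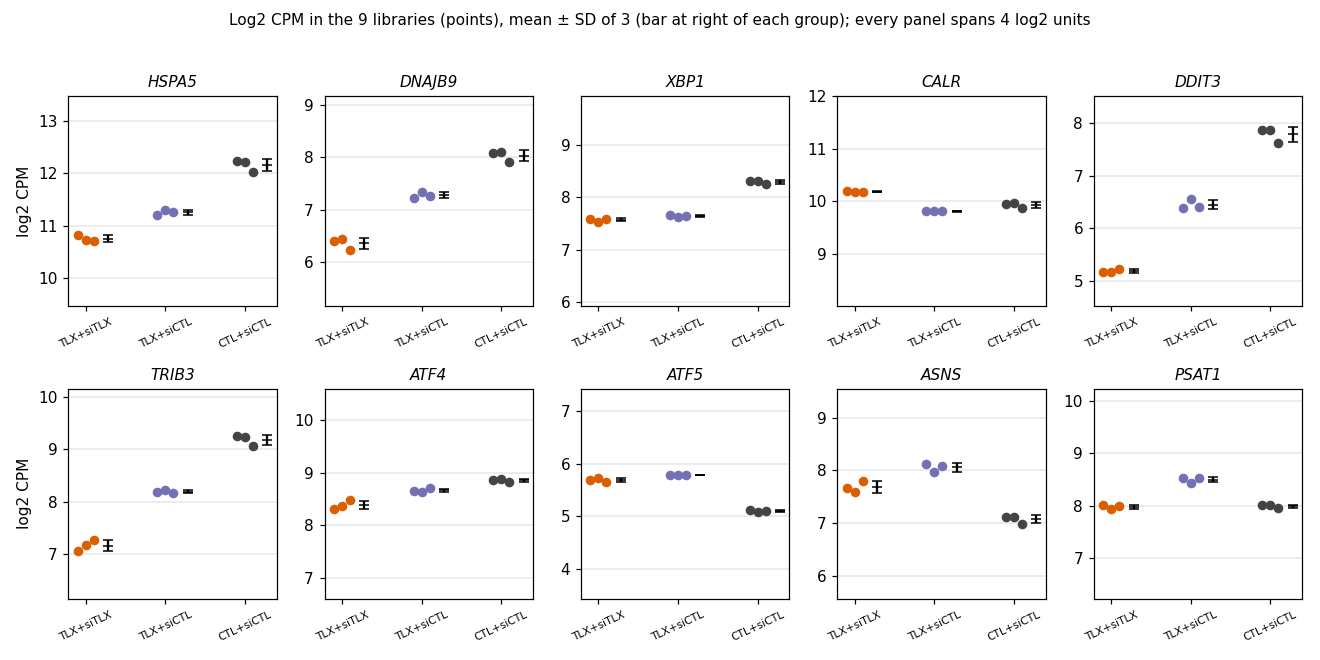
Log2 CPM of 10 members in each library (points) by group, with the mean ± SD of 3 beside the points; each panel spans 4 log2 units, and heights should not be compared between genes. HSPA5, DNAJB9, DDIT3 and TRIB3 are lowest in TLX+siTLX and highest in CTL+siCTL, XBP1 differs little between the TLX groups, and ASNS and PSAT1 are highest in TLX+siCTL.

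Of the 6 genes of amino acid and one-carbon synthesis, 3 were higher and 2 lower in the TLX comparison. That is 50% and 33.3%, for so few genes near the 29.3% higher and 27.4% lower of the more abundant rows. In the siRNA comparison 5 of 6 fell (83.3%) and 0 rose, beside 22.0% and 23.8% of those rows. ASNS, asparagine synthetase (chr7, with the CARE printed above), had 7.67, 7.59 and 7.80 log2 CPM in TLX+siTLX, 8.13, 7.97 and 8.08 in TLX+siCTL, and 7.12, 7.12 and 6.99 in CTL+siCTL. TLX+siCTL was the highest group, TLX+siTLX lay between, and control cells were lowest. ASNS rose by 0.98 ± 0.07 (SE, adjusted p = 1.01e-05) in the TLX comparison, and gave -0.37 ± 0.07 (SE, adjusted p = 0.00393) in the siRNA comparison and 0.61 ± 0.07 (SE, adjusted p = 0.000111) in the combined comparison.

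The 3 enzymes of the serine pathway, taken in their order, differed from each other. PHGDH, which starts the pathway, had 1.70, 1.90 and 2.17 log2 CPM in TLX+siTLX, 2.85, 2.79 and 2.92 in TLX+siCTL, and 3.21, 3.27 and 2.98 in CTL+siCTL. TLX+siTLX was far below the rest, and its estimated reads were the fewest of any member after STC2. PHGDH gave -0.30 ± 0.13 (SE, adjusted p = 0.12) in the TLX comparison, -0.93 ± 0.13 (SE, adjusted p = 0.000848) in the siRNA comparison and -1.23 ± 0.13 (SE, adjusted p = 7.07e-05) in the combined comparison. PSAT1, the transaminase of the next step, is shown in full after its values were seen, because its TLX+siTLX and control values met, with 8.01, 7.93 and 8.01 log2 CPM in TLX+siTLX, 8.53, 8.44 and 8.52 in TLX+siCTL, and 8.01, 8.01 and 7.96 in CTL+siCTL. TLX+siCTL was above all others, and TLX+siTLX overlapped CTL+siCTL. PSAT1 gave 0.50 ± 0.04 (SE, adjusted p = 2.26e-05) in the TLX comparison, -0.52 ± 0.04 (SE, adjusted p = 4.27e-05) in the siRNA comparison and -0.01 ± 0.04 (SE, adjusted p = 0.882) in the combined comparison. PSPH, the phosphatase that ends the pathway, rose by 0.74 ± 0.07 (SE) in the TLX comparison and stood 0.50 ± 0.07 (SE) in the combined comparison. Its siRNA value, -0.24 ± 0.07 (SE, adjusted p = 0.0278), lost its call without S2 (adjusted p = 0.0563), S4 (0.108), S5 (0.0962), S8 (0.101) or S9 (0.0753), without an intensity trend (0.0709) and in a fit of the 2 groups alone (0.0503).

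The mitochondrial one-carbon enzymes SHMT2 and MTHFD2 fell in the TLX comparison, while MTHFD1L, an enzyme of the same mitochondrial pathway that is no member, rose there by 0.74 ± 0.05 (SE). SHMT2, which splits serine to glycine, gave -0.78 ± 0.05 (SE) in the TLX comparison, -0.34 ± 0.05 (SE) in the siRNA comparison and -1.12 ± 0.05 (SE, adjusted p = 6.4e-07) in the combined comparison. MTHFD2, the next enzyme, gave -0.50 ± 0.05 (SE) in the TLX comparison and -0.12 ± 0.05 (SE, adjusted p = 0.106) in the siRNA comparison, which became a call with centring on all rows (-0.26) or on the more abundant rows (-0.15).

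Of the 5 stress effectors 4 fell in the TLX comparison, and 2 fell and 1 rose in the siRNA comparison. Of the more abundant rows 27.4% fell in the TLX comparison, and 22.0% fell and 23.8% rose in the siRNA comparison. For so few genes, the siRNA counts (40% lower and 20% higher) are near these shares. CHAC1, which breaks down glutathione and holds a CARE, gave -0.36 ± 0.08 (SE) in the TLX comparison and -0.31 ± 0.08 (SE, adjusted p = 0.0215) in the siRNA comparison. That siRNA call was lost without S1, S4, S5, S6, S7 or S8 (adjusted p 0.0508, 0.0866, 0.0827, 0.0609, 0.0612 and 0.0789), without an intensity trend (0.0539) and in a fit of the 2 groups alone (0.0713). SESN2 (sestrin, an inhibitor of mTORC1 that senses leucine) gave -0.56 ± 0.06 (SE) in the TLX comparison and -0.16 ± 0.06 (SE, adjusted p = 0.097) in the siRNA comparison, and became a call there with centring on all rows (-0.30, adjusted p = 0.0058).

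DDIT4 (REDD1, another inhibitor of mTORC1), singled out after its values were seen as the only member of the arm that rose in the siRNA comparison, had 7.41, 7.51 and 7.70 log2 CPM in TLX+siTLX, 7.26, 7.16 and 7.12 in TLX+siCTL, and 7.66, 7.69 and 7.65 in CTL+siCTL. TLX+siCTL was the lowest group, and TLX+siTLX reached the control range in S9 alone. DDIT4 gave -0.49 ± 0.07 (SE, adjusted p = 0.000767) in the TLX comparison, 0.36 ± 0.07 (SE, adjusted p = 0.00578) in the siRNA comparison and -0.12 ± 0.07 (SE, adjusted p = 0.237) in the combined comparison, the last of which became a call without S9 (-0.20, adjusted p = 0.018). VLDLR, a lipoprotein receptor induced by ATF4 under ER stress, gave -0.23 ± 0.06 (SE, adjusted p = 0.0151) and -0.24 ± 0.06 (SE, adjusted p = 0.0175) in the TLX and siRNA comparisons. Its TLX call was lost without S1 (adjusted p = 0.0519), without S5 (0.0575) and with centring on all rows (0.228), and its siRNA call without S4 (adjusted p = 0.0722), S6 (0.0682), S7 (0.0629) or S8 (0.0591) and without an intensity trend (0.0542). STC2, a secreted glycoprotein, was the member with the fewest reads, spanned 0.50 to 1.68 log2 CPM with overlapping groups, and was not called in any comparison (-0.28 ± 0.29 (SE), -0.07 ± 0.29 (SE) and -0.35 ± 0.29 (SE)).

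Other genes of these pathways, listed by known function, are given here by their counts, with the 2 largest changes each way. The shares of the more abundant rows beside them were 27.4% lower and 29.3% higher in the TLX comparison, and 22.0% lower and 23.8% higher in the siRNA comparison. For the combined comparison these shares were 31.2% lower and 32.4% higher. Of 54 other genes of ER folding, translocation and degradation, 27 fell and 9 rose in the TLX comparison (median -0.15), and 20 fell and 9 rose in the siRNA comparison (median -0.09). With centring on all rows these were 17 lower and 13 higher in the TLX comparison, and 31 lower and 6 higher in the siRNA comparison. The largest falls of the TLX comparison were those of ERO1B, a thiol oxidase (-1.35 ± 0.18, SE), and EDEM2, a mannosidase of degradation (-0.84 ± 0.05). The largest rises were those of ATF6B, the paralog of ATF6, whose reads were split over 4 rows and are uncertain (0.58 ± 0.07), and SEC63, a translocation protein (0.36 ± 0.06). The collagen chaperone FKBP14 (-1.0 ± 0.14) and the isomerase TXNDC5 (-0.78 ± 0.04) fell most in the siRNA comparison, and the factor CREB3L1 (0.60 ± 0.05) and the isomerase PDIA5 (0.55 ± 0.10) rose most. In the combined comparison 31 fell and 8 rose (median -0.21), with ERO1B at -2.03, FKBP14 at -1.30, ATF6B at 1.11 and PRKCSH, a glucosidase subunit, at 0.55.

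Of 30 other genes of the eIF2alpha kinases and the ATF4 stress response, 12 fell and 6 rose in the TLX comparison (median -0.19) and 17 fell and 2 rose in the siRNA comparison (median -0.32). With centring on all rows the counts were 11 lower and 9 higher in the TLX comparison, and 19 lower and 0 higher in the siRNA comparison. GDF15, a secreted stress cytokine (-1.98 ± 0.10, SE), and LAMP3, a lysosomal membrane protein (-1.52 ± 0.11), fell most in the TLX comparison, and PYCR1 of proline synthesis (0.86 ± 0.04) and CTH of cysteine synthesis (0.76 ± 0.07) rose most. In the siRNA comparison KLHL24, a ubiquitin ligase adaptor, fell by 1.13 ± 0.10, and CBS, whose reads are shared with a near-identical copy and uncertain, was called lower (adjusted p = 0.0497). CBS was at the lowest value of the table, -5.33 log2 CPM, in all 3 TLX+siTLX libraries, and at -3.46, -4.21 and -4.27 in TLX+siCTL, so no fold is given. CBS lost that call without S1, S4, S5, S6, S7, S8 or S9 (adjusted p from 0.0936 to 0.18), without an intensity trend (0.0725) and with log2(CPM + 1) (0.167). The 2 genes that rose there, JDP2 (0.29 ± 0.06) and VEGFA (0.13 ± 0.03), lost that call with centring on all rows, where VEGFA was at -0.01. VEGFA also lost it without S4 (adjusted p = 0.0538), S6 (0.0589) or S8 (0.0561), without an intensity trend and with the other scalings. In the combined comparison 18 fell and 7 rose (median -0.55), with LAMP3 at -2.58, GDF15 at -2.30, PYCR1 at 0.77 and MTHFD1L at 0.61.

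Amino acid transporters reported as ATF4 targets were found for 11 of 12 listed, and 4 rose and 4 fell in the TLX comparison (median -0.08). That is 36.4% each way, near the 27.4% lower and 29.3% higher of the more abundant rows. The 4 falls were 0 without S1 or without S4, 2 without S2, S5 or S6, 2 without an intensity trend, and 1 with centring on all rows, where 5 rose. SLC1A4, a neutral amino acid transporter (1.00 ± 0.06, SE), and SLC7A5, the large neutral amino acid transporter (0.49 ± 0.05), rose most, and the cystine transporter SLC7A11 (-0.50 ± 0.12) and SLC38A1 (-0.28 ± 0.07) fell most. Without S1 or S4 the adjusted p was 0.0574 or 0.0547 for SLC7A11, and 0.0548 or 0.0573 for SLC38A1, which also lost its call with centring on all rows (-0.16). In the siRNA comparison 7 of 11 fell and 0 rose (median -0.22), led by SLC3A2, the partner of SLC7A5 (-0.78 ± 0.05), and SLC38A2 (-0.73 ± 0.08). The combined comparison had 5 lower and 3 higher (median -0.11), with SLC7A11 at -1.15, SLC38A2 at -1.01, SLC1A4 at 0.82 and SLC7A5 at 0.48. These counts are 45.5% lower and 27.3% higher, beside 31.2% and 32.4% of the more abundant rows.

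Of 21 cytosolic aminoacyl-tRNA synthetases and XPOT, which charge and export tRNA, 12 rose and 5 fell in the TLX comparison (median 0.18), and 12 fell and 1 rose in the siRNA comparison (median -0.14). With centring on all rows 15 rose and 2 fell in the TLX comparison, and 15 fell and 0 rose in the siRNA comparison. Without an intensity trend 4 fell in the siRNA comparison. TARS1 (0.57 ± 0.07, SE) and YARS1 (0.40 ± 0.03) rose most in the TLX comparison, where WARS1, the tryptophan enzyme that interferon also induces, fell by 0.79 ± 0.04 and XPOT fell by 0.42 ± 0.03. In the siRNA comparison XPOT (-0.51 ± 0.03) and MARS1 (-0.31 ± 0.04) fell most, and FARSB rose by 0.25 ± 0.04, a call lost with centring on all rows (0.11, adjusted p = 0.0741). The combined comparison had 8 higher and 7 lower (median 0.11), with TARS1 at 0.65, LARS1 at 0.39, WARS1 at -1.06 and XPOT at -0.94. These counts are 38.1% higher and 33.3% lower, near the 32.4% and 31.2% of the more abundant rows.

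**Figure D4:**
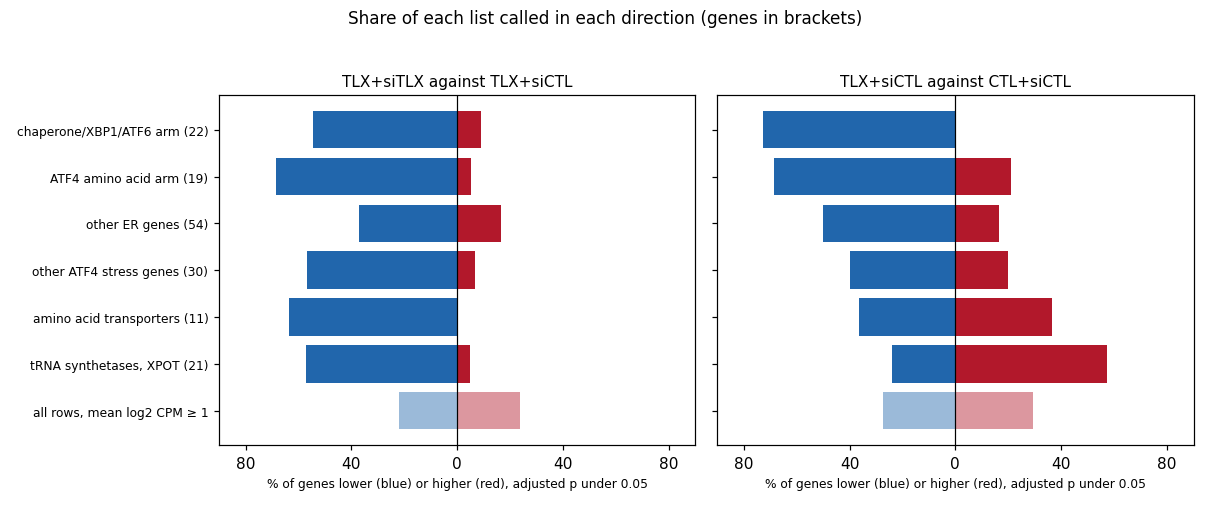
Share of the genes of each arm and list that fell (left of 0, blue) or rose (right of 0, red) at an adjusted p under 0.05 in the siRNA comparison and the TLX comparison, above the same share over all rows averaging 1 log2 CPM or more (pale). In the TLX comparison the chaperone arm has 72.7% lower and 0 higher, and the tRNA synthetase list has 57.1% higher.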

How the data were processed

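RNA of 9 libraries in 3 groups of 3 was sequenced after a stranded TruSeq mRNA preparation, per the labels' protocols. The authors deposited log2 CPM values for 27548 Ensembl gene rows. Tools and builds named per the submitters' processing notes are edgeR, limma, kallisto 0.44.0 and GRCh38, without their roles. The authors also deposited a table that gives each comparison a signed fold change, entered here as a score, with p-values and false discovery rates, and was used only as an alternative. Table columns name the group with a counter that matches no label of a sample, and 0 columns were left unmapped.

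All 41 members were taken by symbol. Each comparison was fitted with limma 3.58.1 in R 4.3.3 (lmFit, contrasts.fit, eBayes with an intensity trend) on the deposited values, with no filter, all 9 libraries in 1 fit with a mean per group, two-sided, and Benjamini-Hochberg adjustment over all rows at 0.05. This code was tested on simulated data. A prior count is part of the deposited log2 values, taken as 2 from the lowest value (-5.33), so fold changes of low genes are understated. Library sizes were estimated from the steps between low values. Of values under 20 reads only 37.2% to 39.2% were whole to within 0.01, and 18.4% to 20.0% of a library's rows were at 0. Fold changes were therefore not tested on rebuilt reads. The estimated reads of members and the chi-square between replicates rest on these estimated sizes and are approximate.

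Members and lists were chosen with earlier results of these data known. By rule, 9 values are given for sensors, transcription factors and the 4 called members of each arm with the largest change in a comparison, and of each other list the 2 largest called changes in each direction are named. SLC7A3 was the listed gene with no row. Older symbols were matched. Motifs were searched in RefSeq windows. For 47 of the 54 windows of members, bases after the start site occurred somewhere in a GENCODE 29 transcript of that gene, and 0 did so in reverse. The match was not required to lie at the 5′ end, so it checks orientation only. Protein sequences were not used here, and some marker genes looked at are not reported here. Alternatives were 3 other scalings, a filter at a mean log2 CPM of 1, log2(CPM + 1), no trend, the 2 groups alone, summed rows of a symbol, the authors' false discovery rates and leaving out each library.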

Additional observations from a re-analysis of the deposited data

How the results depend on the processing

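The 41 members gave 2211 values over 18 alternative settings and 3 comparisons. Of these 2156 kept their side of the threshold, 32 lost a call, 23 gained one and 0 reversed the direction of a call. A change of sign between uncalled values was counted as kept. Calls that held under all 18 settings were 37 of 37 in TLX+siTLX against CTL+siCTL, 23 of 28 in TLX+siTLX against TLX+siCTL (all but CHAC1, CREB3L2, PSPH, SEL1L and VLDLR) and 30 of 33 in TLX+siCTL against CTL+siCTL (all but ATF4, PPP1R15A and VLDLR). The authors' deposited table gave the same call for 41, 41 and 39 of 41 members in these comparisons, in that order.

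Centred on the median of all rows, the median log2 fold change of the chaperone arm was -0.39 in TLX+siCTL against CTL+siCTL, -0.43 in TLX+siTLX against TLX+siCTL, with 1 member higher, and -0.73 in TLX+siTLX against CTL+siCTL, and that of the ATF4 arm was -0.25, -0.45 and -0.70 in these comparisons. Quantile normalization gave the chaperone arm -0.45 in TLX+siCTL against CTL+siCTL and -0.73 in TLX+siTLX against CTL+siCTL. The filter on low values gave the ATF4 arm -0.70 in TLX+siTLX against CTL+siCTL. Leaving out 1 library gave the ATF4 arm -0.50 to -0.34 in TLX+siCTL against CTL+siCTL and -0.72 to -0.63 in TLX+siTLX against CTL+siCTL, and the chaperone arm -0.73 to -0.69 in the last.

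Counts of the other lists moved more. With all rows centred, TLX+siCTL against CTL+siCTL had 17 other ER genes, 1 transporter and 2 synthetase genes lower, and TLX+siTLX against TLX+siCTL had 31 other ER genes lower, 0 other ATF4 stress genes and 0 synthetase genes higher, and VEGFA reversed to -0.013 (adjusted p = 0.87). For other ATF4 stress genes higher in TLX+siTLX against TLX+siCTL, the count was 1 with the more abundant rows centred, 1 with no trend, 1 with quantile normalization, 3 with summed rows, and 1 to 2 without 1 library. Without a trend 4 synthetase genes were lower in TLX+siTLX against TLX+siCTL and 2 transporters were lower in TLX+siCTL against CTL+siCTL, where leaving out 1 library gave 0 to 4. The cause was not tested. Centring moves all values of a library by 1 constant, and so all fold changes of a comparison by the same amount. Calls that changed with it were not only near the threshold. In TLX+siTLX against TLX+siCTL the adjusted p of PDIA4 went from 0.509 to 0.0189 with all rows centred. A fit without 1 library has fewer samples. No paired analysis was possible because the columns carry only a running number that no sample's labels hold. Low depth bears on STC2 and PHGDH, the members with the fewest estimated reads.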
